A study of Mus musculus with 11 samples.

Results

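Cd36 and 9 of its partners in fatty acid uptake were followed through the mouse heart: Lpl, Gpihbp1 and Lrp1, which act on lipoproteins, Cav1 and Slc27a1 at the membrane, Fabp3, Fabp4 and Fabp5 in the cytosol, and Acsl1, which activates the fatty acid. Each was the row of the normalized count table whose symbol equals the gene's name. All 10 were found among the 23420 genes of the table, and all 10 were among the 12976 genes with a mean normalized count of at least 10 that were tested.

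Fatty acids reach the heart bound to albumin or inside lipoproteins, from which lipoprotein lipase releases them in the capillary. They cross the endothelium and then the cardiomyocyte membrane, CD36 being the best known transporter of both cell types, and are trapped inside the cell by binding proteins and by coupling to coenzyme A. Most genes of this route are known targets of the PPAR nuclear receptors, which respond to fatty acids.

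Total RNA of whole heart tissue was sequenced in 11 libraries, 2 labelled Control, 3 labelled EC cd36 KO (EC KO), 3 labelled MHC cd36 KO (CM KO) and 3 labelled Total cd36 ko (Total KO). The strain field gives a Cd36 loxP cross for every group, Control included. The series' design text adds Tie2-cre, which is driven by an endothelial promoter known to act also in blood cells, for EC KO and MHC-cre, driven by a cardiomyocyte promoter, for CM KO. How Total KO was made, whether Control carried a Cre, the age of the mice, their sex and whether libraries came from separate animals are not given in the sources used here, so the p-values measure only the spread between these libraries. All 11 libraries held reads of the Y-linked Ddx3y, at 749 to 1434 normalized counts, and little Xist, at 0.8 to 18.1. The 15 cardiomyocyte markers made up 10.4 to 14.6% of each library's normalized counts, the highest share of any marker list measured.

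The libraries held 11157062 to 20105673 reads, apart from EC KO replicate 1 with 2268403. CM KO replicate 1 lay farthest from the rest on the first principal component of all tested genes (58.9, against 24.3 and 32.3 for the other CM KO libraries). Correlations below are over libraries, and no batch is given in the labels. These 2 libraries and Total KO replicate 1, the shallowest of its group, are called the doubted libraries below, and counts are also given without all 3. In whole tissue, fewer cells of a type and less RNA per cell cannot be told apart. A level below is a normalized count, that is, reads divided by a factor for each library, and a difference is on the log2 scale with its SE from limma, called where the p-value adjusted over all tested genes is under 0.05. The adjustment was made within each contrast, so the same unadjusted p-value can pass in some contrasts and not in others.

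Cd36, on chromosome 5 (GENCODE models on GRCm38 here and below, 17781690-17888801, minus strand), encodes the fatty acid translocase of the plasma membrane. Its 250 bases before the RefSeq start (GRCm38.p6, chr5:17835897-17836146, minus strand) are shown with those of Slc27a1, the other gene that lay below Control in all knockout libraries, and of Lrp1, the gene that was higher in CM KO. The Slc27a1 window, for the first of 3 RefSeq starts, is chr8:71568621-71568870 on the plus strand, and the Lrp1 window is chr10:127621149-127621398 on the minus strand. Capitals mark AGGTCA, the core site of nuclear receptors such as the PPARs, read here on the opposite strand.
Cd36: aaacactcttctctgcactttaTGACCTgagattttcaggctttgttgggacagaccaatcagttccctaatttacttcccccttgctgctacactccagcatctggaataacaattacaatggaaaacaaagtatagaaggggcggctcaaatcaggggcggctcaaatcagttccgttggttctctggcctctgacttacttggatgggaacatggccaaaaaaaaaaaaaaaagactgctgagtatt
Slc27a1: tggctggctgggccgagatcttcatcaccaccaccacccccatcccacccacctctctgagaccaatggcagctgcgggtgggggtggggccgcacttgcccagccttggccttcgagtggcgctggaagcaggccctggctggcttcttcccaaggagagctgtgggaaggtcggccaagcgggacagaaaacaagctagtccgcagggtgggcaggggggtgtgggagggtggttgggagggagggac
Lrp1: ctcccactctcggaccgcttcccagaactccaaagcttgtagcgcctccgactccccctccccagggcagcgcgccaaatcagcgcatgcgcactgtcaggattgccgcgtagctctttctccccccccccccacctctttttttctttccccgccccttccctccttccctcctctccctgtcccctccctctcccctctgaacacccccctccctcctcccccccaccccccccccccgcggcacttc
This site began 228 bases before the Cd36 start, and none was found on either strand in the windows of Slc27a1 or Lrp1. It occurred on either strand in 14.0% of the 32851 promoter windows of this length in the table. Of the 10 windows for 6 of the genes (Cd36, Fabp3, Slc27a1, Cav1, Acsl1 and Lrp1), the Cd36 window was the 1 that held it, and none held the direct repeat of this site with 1 base between the copies, which 0.0335% of all windows held. The Cd36 window was 43.2% G and C, against 66.4% for the Slc27a1 and 67.2% for the Lrp1 window. A match of letters is a description of the sequence and not a binding site.

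Cd36 itself was lower in CM KO than in Control. Cd36 counted 44529.6 and 35425 normalized reads for Control, 30308, 27804 and 25759 for EC KO, 15792, 21610.2 and 21363 for CM KO and 18847, 23452 and 21266 for Total KO. Both Control libraries lay above all 9 knockout libraries, a pattern that 2.09% of tested genes showed and that Slc27a1 shared. The means of EC KO, CM KO and Total KO were 69.9%, 49.0% and 53.0% of the Control mean. In CM KO it fell by 1.03 ± 0.17 on the log2 scale (95% interval -1.40 to -0.67; limma, adjusted p = 0.00863). Neither EC KO, at -0.51 ± 0.17 (adjusted p = 0.298 by limma), nor Total KO, at -0.91 ± 0.17 (adjusted p = 0.0809 by limma), passed against Control. The 3 contrasts share the same 2 Control libraries, and without Control replicate 1 the CM KO difference was -0.87 and did not pass.

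EC KO kept more Cd36 than CM KO, with libraries that did not overlap and a difference of 0.52 ± 0.15 (limma, adjusted p = 0.0298). Leaving out replicate 1 (0.46) or 2 (0.53) of EC KO or replicate 1 of CM KO (0.38) ended that call, as did the fit without all 3 doubted libraries (0.32) and scaling to cardiomyocyte markers (0.34) or endothelial markers (0.18). Total KO and CM KO overlapped, with a difference of 0.12 ± 0.15 whose 95% interval was -0.21 to 0.45. Total KO lay below EC KO in every library, yet the difference of -0.40 ± 0.15 did not pass (limma, adjusted p = 0.393). The Total KO difference from Control did pass without CM KO replicate 1 (-0.91), without the 3 doubted libraries (-0.83), by DESeq2 (-0.92), with equal library totals (-0.96), quantile normalization (-1.02) or a weight per library (-0.89), and when scaled to cardiomyocyte markers (-1.03). The count sums all exons of the gene, the exons between the loxP sites are not given in the sources used here, and a level of 53.0% of Control in libraries labelled as a total knockout therefore does not check that label.

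**Figure D1:**
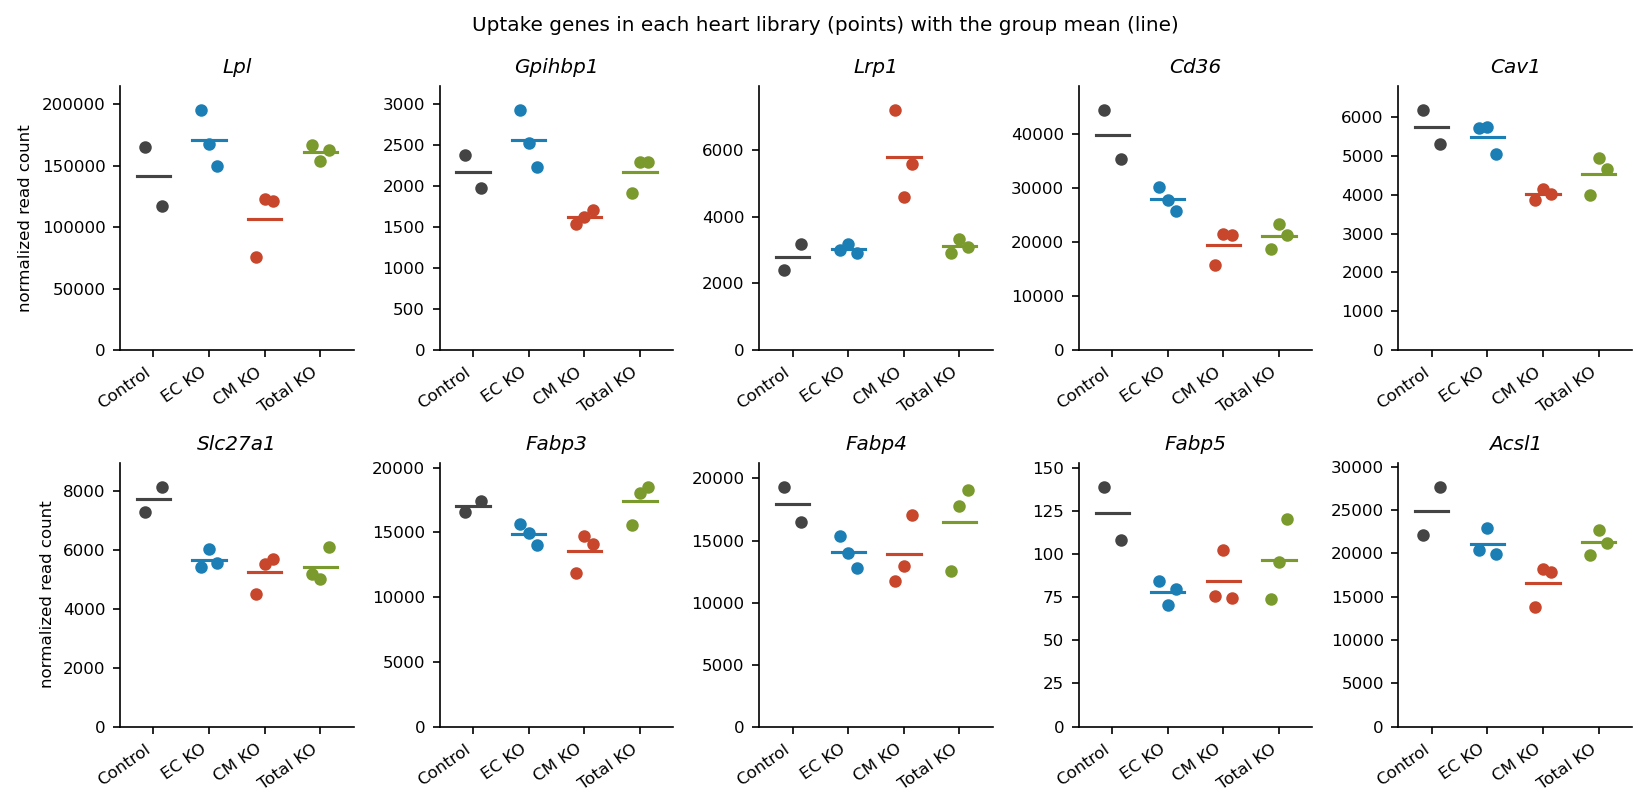
Normalized read count (vertical axes, each from 0) of the 10 genes in each library, by group on the horizontal axis; points are libraries and lines are group means. Cd36 and Slc27a1 lie below both Control libraries in all 9 knockout libraries, and the 3 CM KO libraries of Lrp1, between 4590.0 and 7188, lie above all others.

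Among the genes of lipoprotein handling, Lrp1 was higher in CM KO than in each other group, and Gpihbp1 was lower there than in EC KO and Total KO. Lpl, on chromosome 8 (68880491-68907448), encodes lipoprotein lipase, the enzyme that frees fatty acids from circulating triglyceride. Lpl counted 165141 and 117376 normalized reads for Control, 195194, 167728 and 149434 for EC KO, 75853, 123179.5 and 121091 for CM KO and 167077, 153839.5 and 162562 for Total KO. The Control libraries were far apart, and they overlapped with all 3 knockout groups. Lpl differed from Control by 0.29 ± 0.25 in EC KO, -0.42 ± 0.25 in CM KO and 0.21 ± 0.25 in Total KO, and none of these passed (limma, adjusted p = 0.735, 0.376 and 0.914). All EC KO libraries lay above all CM KO libraries, by 0.70 ± 0.22 (limma, adjusted p = 0.0445). This call held only with Control replicate 1, Control replicate 2 or CM KO replicate 2 left out, and the 8 other libraries left out in turn gave 0.48 to 0.81 without passing (0.37 without the 3 doubted libraries). Total KO also lay above CM KO in every library, by 0.63 ± 0.22, which did not pass (limma, adjusted p = 0.0747). DESeq2 did call this difference, and it passed limma when scaled to cardiomyocyte markers (0.42, adjusted p = 0.0489).

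Gpihbp1, on chromosome 15 (75596628-75599481), encodes the capillary protein that carries lipoprotein lipase to the lumen and anchors it there. Gpihbp1 counted 2385 and 1973 normalized reads for Control, 2931, 2522 and 2229 for EC KO, 1541, 1629.9 and 1708 for CM KO and 1924, 2299.5 and 2297 for Total KO. The CM KO libraries lay below those of each other group without overlap. Gpihbp1 was higher in EC KO than in CM KO by 0.65 ± 0.12 (limma, adjusted p = 0.00356), a call that held whichever single library was left out but not when values were scaled to endothelial markers (0.31). It was higher in Total KO than in CM KO by 0.41 ± 0.12 (limma, adjusted p = 0.031), a call lost without CM KO replicate 1 (0.38), 2 (0.42) or 3 (0.45) or Total KO replicate 2 (0.37) or 3 (0.37), and when scaled to cardiomyocyte (0.21) or endothelial markers (0.31). Against Control the differences were 0.23 ± 0.13 in EC KO, -0.42 ± 0.13 in CM KO and -0.00 ± 0.13 in Total KO, none of which passed (limma, adjusted p = 0.576, 0.0855 and 0.999), though DESeq2 called the CM KO difference.

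Lrp1, on chromosome 10 (127538161-127621148, minus strand), encodes a large endocytic receptor that takes up lipoprotein remnants and binds lipoprotein lipase. Lrp1 counted 2402 and 3190.2 normalized reads for Control, 2991, 3163 and 2917 for EC KO, 7188, 4590.0 and 5583 for CM KO and 2920.3, 3318 and 3102 for Total KO. The CM KO libraries were higher than all 8 others, and those 8 overlapped among themselves. Lrp1 rose in CM KO from 2796 ± 558 (SD, n = 2) to 5787 ± 1311 (n = 3), by 1.04 ± 0.17 (95% interval 0.68 to 1.40; limma, adjusted p = 0.00788). The call was lost without Control replicate 1 (0.83). EC KO minus CM KO was -0.91 ± 0.15 (limma, adjusted p = 0.00199) and Total KO minus CM KO -0.87 ± 0.15 (adjusted p = 0.0043), and both passed with every library left out in turn. In EC KO (0.13 ± 0.17) and Total KO (0.17 ± 0.17) the differences from Control did not pass.

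Markers of macrophages and monocytes, cells in which Lrp1 is also active, moved with it. In CM KO against Control, where 3.29% of all tested genes were called higher, 11 of 13 rose (limma; median difference 1.25). The 13 markers summed to 5401 to 5784 normalized counts in Control, 4946 to 5768 in EC KO, 5067 to 6979 in Total KO and 10019 to 18438 in CM KO. The order of the 3 CM KO libraries was the same for Lrp1 and for this sum, with replicate 1 at the top and replicate 2 at the bottom. The 11 fibroblast markers summed to 20076 to 21019.9 in Control and 32951 to 97566 in CM KO. Of these, 7 of 11 rose in CM KO against Control (limma; median difference 1.37), and their sum gave the 3 CM KO libraries the same order. The part of these cells in the Lrp1 result was not tested.

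**Figure D2:**
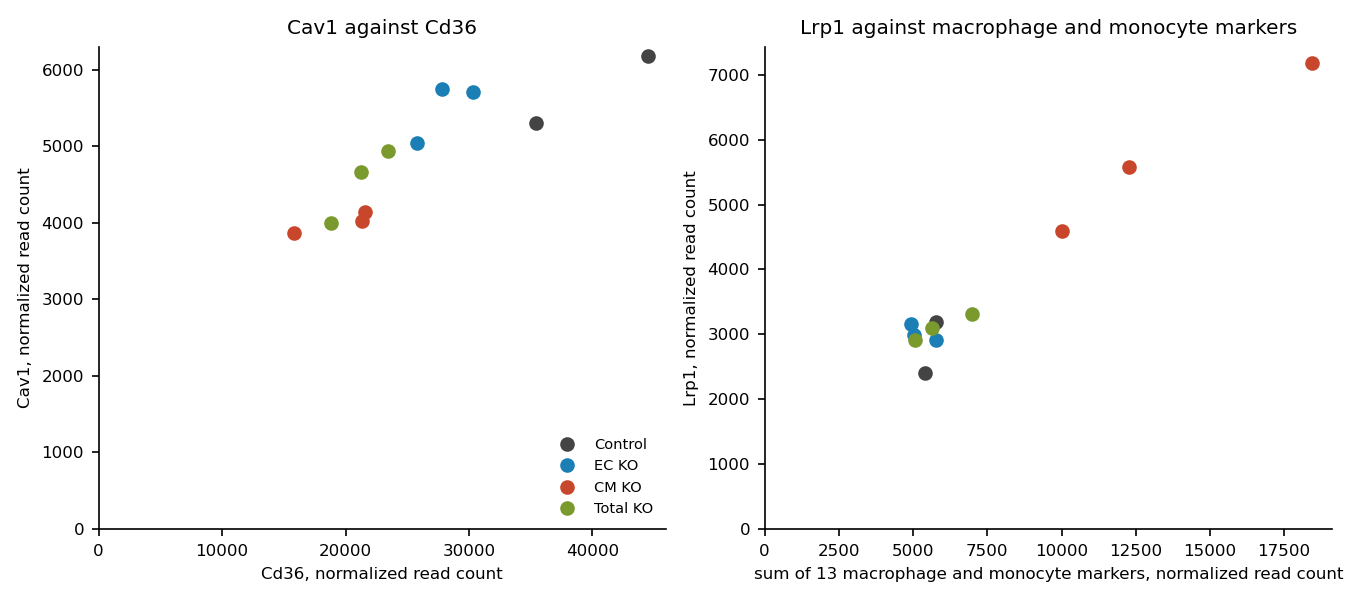
Left, Cav1 against Cd36, and right, Lrp1 against the summed level of 13 macrophage and monocyte markers, all in normalized read counts with axes from 0 and 1 point for each library, coloured by group. On the right the 3 CM KO libraries stand apart, at marker sums of 10019 to 18438, while the 8 others lie between 4946 and 6979.

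At the membrane, Cav1 and Slc27a1 both fell in CM KO. Cav1, on chromosome 6 (17306335-17341452), encodes the main coat protein of endothelial caveolae, the membrane pits in which CD36 is also found. Cav1 counted 6179 and 5305 normalized reads for Control, 5704, 5743 and 5039.6 for EC KO, 3863, 4144 and 4019 for CM KO and 3995, 4941 and 4665 for Total KO. The 3 CM KO libraries spanned a narrow range, below all Control and EC KO libraries, while EC KO overlapped with Control. In CM KO it fell by 0.51 ± 0.11 on the log2 scale (a change of -30.0%; limma, adjusted p = 0.0251). The call was lost without Control replicate 1 (-0.40), CM KO replicate 1 (-0.49) or CM KO replicate 3 (-0.52). Cav1 was higher in EC KO than in CM KO by 0.45 ± 0.10 (limma, adjusted p = 0.0102), which held with every library left out in turn but not when scaled to cardiomyocyte (0.27) or endothelial markers (0.11). The difference from Control was -0.06 ± 0.11 in EC KO, with a 95% interval of -0.31 to 0.19, and -0.34 ± 0.11 in Total KO (limma, adjusted p = 0.399), where all libraries lay below Control.

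Slc27a1, on chromosome 8 (71568882-71587302), encodes a fatty acid transport protein with acyl-CoA synthetase activity. Slc27a1 counted 7294 and 8146 normalized reads for Control, 5408, 6020.0 and 5567 for EC KO, 4493, 5519 and 5685 for CM KO and 5179.8, 5007 and 6098 for Total KO. All 9 knockout libraries, of all 3 groups, lay below both Control libraries, and the knockout groups overlapped with each other. The means were 73.4%, 67.8% and 70.3% of Control in EC KO, CM KO and Total KO. Slc27a1 fell by 0.57 ± 0.13 in CM KO (limma, adjusted p = 0.0251), a call lost without Control replicate 1 (-0.65) or 2 (-0.49) and without the 3 doubted libraries (-0.46). The differences of -0.45 ± 0.13 in EC KO and -0.51 ± 0.13 in Total KO did not pass (limma, adjusted p = 0.211 and 0.226), though DESeq2 called the latter. Between knockout groups its 3 differences were 0.12 ± 0.11 for EC KO minus CM KO, -0.07 ± 0.11 for Total KO minus EC KO and 0.06 ± 0.11 for Total KO minus CM KO.

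The intracellular binding proteins were not called in any group against Control. Fabp3, on chromosome 4 (130308595-130315463), encodes the binding protein of heart muscle. Fabp3 counted 16603 and 17423 normalized reads for Control, 15668, 14917 and 14038 for EC KO, 11874, 14754 and 14066 for CM KO and 15565, 18058 and 18537 for Total KO. EC KO and CM KO lay below Control in every library and Total KO overlapped with it, and the differences were -0.19 ± 0.13, -0.33 ± 0.13 and 0.03 ± 0.13 in this order of EC KO, CM KO and Total KO. Fabp3 was higher in Total KO than in CM KO by 0.36 ± 0.11 (limma, adjusted p = 0.0471). This call was lost without EC KO replicate 1, 2 or 3 (0.36 in each), CM KO replicate 1 (0.27) or 3 (0.39) or Total KO replicate 2 (0.33) or 3 (0.31), and without the 3 doubted libraries (0.34), and the difference was 0.07 after quantile normalization. A processed copy, Fabp3-ps1, exists in the genome, and exonic bases of Fabp3 overlap with Zcchc17 on the opposite strand (81 bases, 9.8% of its exonic bases), so reads of these genes may be mixed.

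Fabp4 and Fabp5 lie near each other on chromosome 3 (10204088-10208576 and 10012548-10016607) and encode binding proteins of capillary endothelium, macrophages and fat cells. Fabp4 counted 19353 and 16462 normalized reads for Control, 15359, 13979 and 12779 for EC KO, 11758, 12964 and 17047 for CM KO and 12562, 17752 and 19043 for Total KO. EC KO lay below Control in every library and the other knockout groups overlapped with it. The Fabp4 differences from Control were -0.35 ± 0.19 in EC KO, -0.38 ± 0.19 in CM KO and -0.14 ± 0.19 in Total KO (limma, adjusted p = 0.565, 0.289 and 0.935). Fabp5 counted 139 and 108 normalized reads for Control, 84.6, 70.2 and 79.6 for EC KO, 75.6, 102 and 74.4 for CM KO and 73.8, 95.5 and 120.1 for Total KO. EC KO and CM KO lay below Control in every library. Fabp5 differed from Control by -0.65 ± 0.23 in EC KO, -0.55 ± 0.23 in CM KO and -0.37 ± 0.23 in Total KO (limma, adjusted p = 0.331, 0.18 and 0.771). Near-identical copies of Fabp5 exist in the genome, so its reads are uncertain. Of 10 fat cell markers, 8 stayed between 0 and 24.7 normalized counts in all 11 libraries (Adipoq 0 to 5.0, Plin1 0 to 3.3, Lep 0 in all), Pck1 reached 36.5, and Cidea stood at 374.6 to 695.8.

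Acsl1, on chromosome 8 (46471037-46536051), encodes the main acyl-CoA synthetase of heart, which activates fatty acids for oxidation. Acsl1 counted 22110.1 and 27697 normalized reads for Control, 20393, 22893 and 19936 for EC KO, 13797, 18126 and 17843 for CM KO and 19826, 22726 and 21227 for Total KO. Of its exonic bases 9.9% overlap with Gm45244 on the opposite strand. CM KO lay below every other library, and EC KO and Total KO overlapped with Control. In CM KO Acsl1 fell by 0.59 ± 0.15 on the log2 scale (a change of -33.5%; limma, adjusted p = 0.0414). The call was lost with any library other than CM KO replicate 2 left out, at -0.75 to -0.43, and without the 3 doubted libraries together (-0.46). The differences in EC KO (-0.23 ± 0.15) and Total KO (-0.22 ± 0.15) did not pass, nor did EC KO minus CM KO (0.35 ± 0.14; limma, adjusted p = 0.0849) or Total KO minus CM KO (0.37 ± 0.14; adjusted p = 0.0845), though DESeq2 called the last 2.

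**Figure D3:**
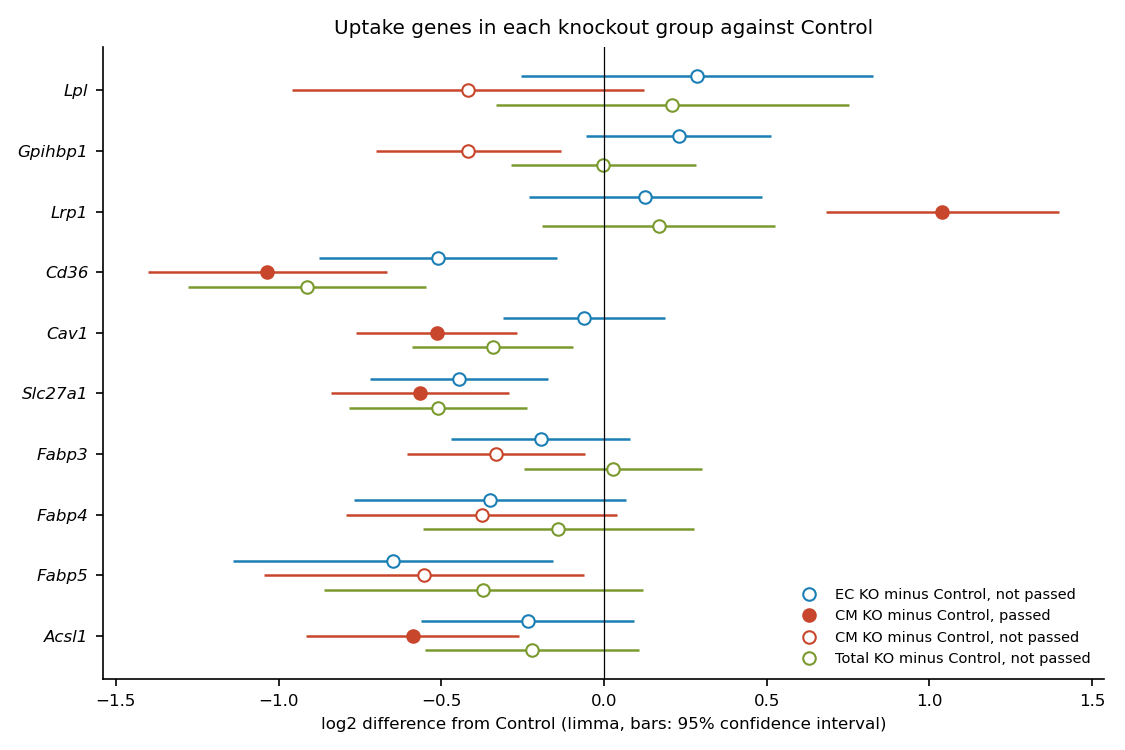
Log2 difference from Control with its 95% confidence interval (limma, horizontal axis) for the 10 genes in EC KO, CM KO and Total KO, which share the 2 Control libraries; filled points passed at an adjusted p under 0.05. The filled points are all CM KO: Lrp1 at 1.04 and Cd36, Acsl1, Slc27a1 and Cav1 between -1.03 and -0.51.

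Counted over the 10 genes, 4 fell and 1 rose in CM KO against Control, where 5.7% of all tested genes were called, 2.4% lower and 3.29% higher (limma; 3 of the 10 without the 3 doubted libraries). The count was 0 without Control replicate 1, 3 without Control replicate 2 or CM KO replicate 1 or 3, and 0 in a fit to these 2 groups alone. Without 1 Control library the spread comes from the 3 knockout groups alone, and the differences of Slc27a1 (-0.65) and Acsl1 (-0.75) without Control replicate 1 were larger than with it. Ranges did not overlap for 8 of the 10, against 36.6% of tested genes, and the median difference was -0.47 against 0.00 over all genes. In EC KO against Control none of the 10 passed limma (3 with an unadjusted p below 0.05; 0 by edgeR and 0 by DESeq2), where 0.316% of genes were called. The ranges of 5 of them, Cd36, Slc27a1, Fabp3, Fabp4 and Fabp5, lay wholly below Control, against 13.2% of tested genes (25.1% in either direction). In Total KO against Control none passed limma (3 with an unadjusted p below 0.05; 0 by edgeR, and Cd36 and Slc27a1 by DESeq2), where 0.0848% of genes were called, and the ranges of 3 (Cd36, Slc27a1 and Cav1) lay below Control, against 12.8% (25.1% in either direction).

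Between knockout groups, 4 of the 10 were higher and 1 lower in EC KO than in CM KO, where 19.1% of genes were called, 8.72% higher and 10.4% lower (3 of the 10 without the 3 doubted libraries, and 3 without EC KO replicate 1 or 2 or CM KO replicate 1). Ranges did not overlap for 6 of the 10 there, against 38.8% of genes. In Total KO against CM KO 2 were higher and 1 lower, where 16.4% were called, 8.2% in each direction. That count was 1 without CM KO replicate 1 or 3 or Total KO replicate 2 or 3, and 2 without CM KO replicate 2, any EC KO library or the 3 doubted libraries, and ranges did not overlap for 5, against 38.9% of genes. In Total KO against EC KO none passed limma (2 with an unadjusted p below 0.05; 0 by edgeR and 0 by DESeq2), where 0.0385% of genes were called, and ranges did not overlap for 2, Cd36 and Cav1, against 19.7%. The F test of any difference from Control called Lrp1, Cd36, Gpihbp1, Cav1 and Slc27a1 (limma, adjusted p = 0.00376, 0.00747, 0.0165, 0.0192 and 0.0329), where 14.3% of genes were called. Lrp1 and Cd36 kept this call with every library left out in turn. Gpihbp1 lost it without CM KO replicate 1, Cav1 without CM KO replicate 3, and Slc27a1 without either Control library, EC KO replicate 2 or 3 or Total KO replicate 1 or 2, and Acsl1 gained it without Control replicate 1.

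Levels of endothelial and cardiomyocyte markers are given beside these differences. Against Control, 0 of 15 endothelial markers passed in any knockout group (limma; 6, 2 and 0 with an unadjusted p below 0.05 in EC KO, CM KO and Total KO; 0 by edgeR in each, and by DESeq2 1, Robo4, in EC KO), and of 14 cardiomyocyte markers Myh7 was the 1 that passed, higher in CM KO (limma and edgeR; DESeq2 also called Tnni3, lower in CM KO). Over all tested genes 0.316%, 5.7% and 0.0848% were called in EC KO, CM KO and Total KO against Control (limma). In EC KO against CM KO 8 endothelial markers were higher and 0 lower, and 3 cardiomyocyte markers were higher and 1 lower (limma; for cardiomyocyte markers 5 and 1 by edgeR, 7 and 1 by DESeq2). Over all tested genes 19.1% were called there, 8.72% higher and 10.4% lower. In Total KO against CM KO 1 cardiomyocyte marker was higher and 1 lower (limma; 4 and 1 by edgeR, 8 and 1 by DESeq2), where 16.4% of all genes were called. There 1 endothelial marker was higher and 1 lower (limma; 2 and 1 by DESeq2). The 15 endothelial markers summed to 29346 to 30511 normalized counts in Control, 33775 to 40209 in EC KO, 25289 to 26283 in CM KO and 28605 to 29773 in Total KO, and their mean log2 value shifted by 0.17 in EC KO and -0.17 in CM KO against Control. The mean of 14 cardiomyocyte markers shifted by 0.10 and -0.09, with median differences of 0.07 and -0.29. Myh7, at 2.27, was the highest of them in CM KO and raised that mean, which the scaling below uses. The 15 cardiomyocyte markers summed to 1766006 to 1853832 in Control, 1908304 to 2003423 in EC KO, 1253968 to 1693666 in CM KO and 1873746 to 2063227 in Total KO. When each library was scaled to its cardiomyocyte markers, Cd36 (-0.95; limma, adjusted p = 0.00414) and Lrp1 (1.13; adjusted p = 0.0155) passed between CM KO and Control, and Cav1 (-0.43), Slc27a1 (-0.48) and Acsl1 (-0.50) did not. Scaled to endothelial markers, Cd36 (-0.87; limma, adjusted p = 0.0128) and Lrp1 (1.21; adjusted p = 0.00198) passed again, and Cav1 stood at -0.35, Slc27a1 at -0.40 and Acsl1 at -0.42. In EC KO minus CM KO, scaling to endothelial markers left Lrp1 as the 1 gene called (-1.25; limma, adjusted p = 8.75e-05), with Gpihbp1 at 0.31, Cav1 at 0.11 and Lpl at 0.36.

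**Figure D4:**
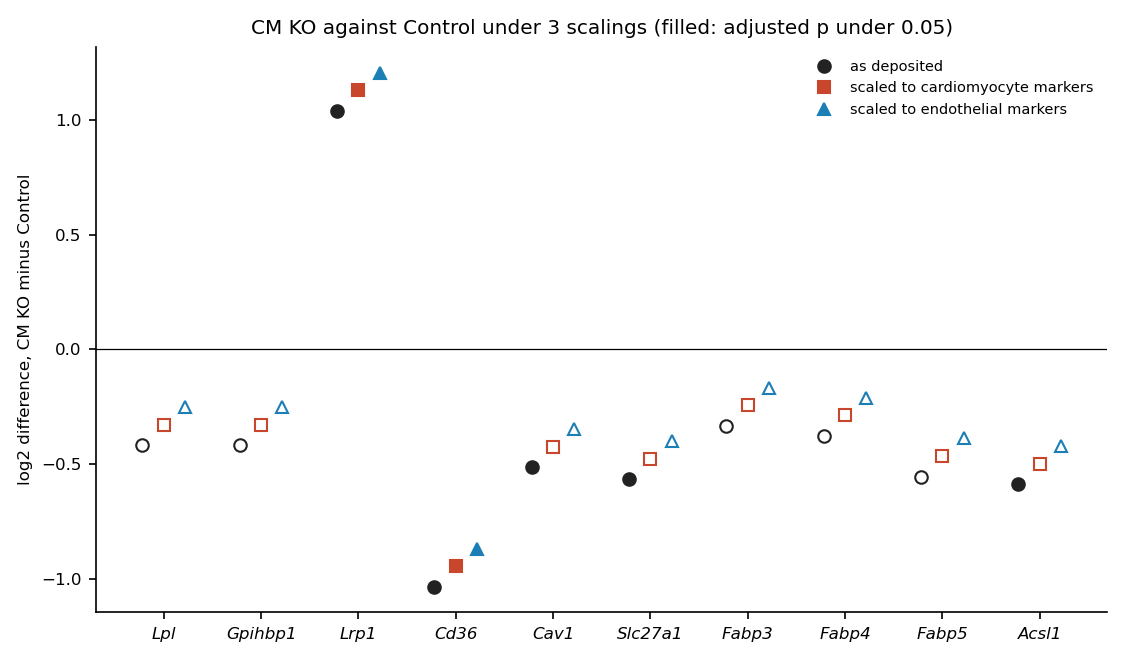
Log2 difference of CM KO minus Control (vertical axis) for the 10 genes as deposited, after scaling each library to its cardiomyocyte markers and after scaling to its endothelial markers; filled points passed at an adjusted p under 0.05 (limma). Cd36 and Lrp1 are filled under all 3 scalings, and Cav1, Slc27a1 and Acsl1 as deposited alone.

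Per kilobase of the principal transcript, the 10 genes differed widely in Control. In normalized reads per kb (mean ± SD, n = 2), Lpl was at the top with 34328 ± 8208, followed by Fabp3 with 20672 ± 704, Fabp4 with 19986 ± 2281 and Cd36 with 11761 ± 1894. The 2 Control libraries of Fabp3 and Fabp4 overlapped, while those of Lpl lay above and those of Cd36 below them. Acsl1 (6390 ± 1014) came next, then Slc27a1 (2762 ± 215), Gpihbp1 (2641 ± 354) and Cav1 (2277 ± 245), of which Gpihbp1 overlapped with both of its neighbours. Lrp1 (188 ± 37.5) and Fabp5 (125 ± 22.2) were the lowest, and in CM KO Lrp1 reached 389 ± 88.1 (n = 3).

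**Figure D5:**
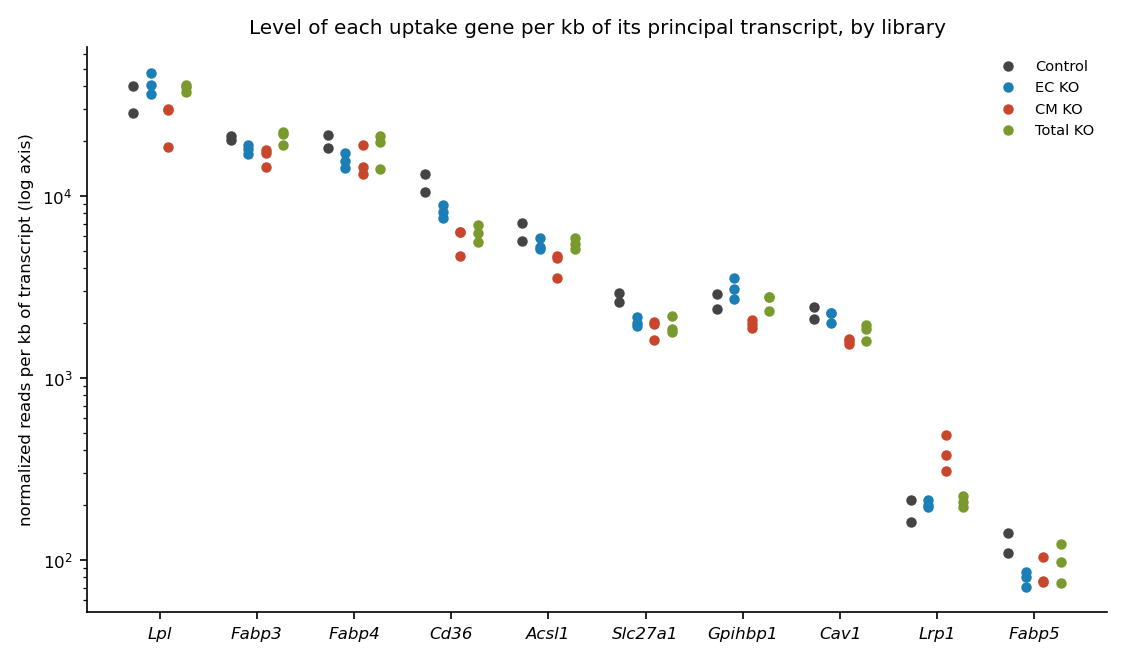
Normalized reads per kb of the principal transcript (vertical log axis) for each gene and library, genes ordered by their Control mean and points coloured by group. Lpl stands at the top, with a Control mean of 34328, and Lrp1 and Fabp5 at the bottom, with 188 and 125.

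Across the 11 libraries, Cav1 followed Cd36 most closely. Its Pearson r with Cd36 was 0.90 and its Spearman rho 0.94 (permutation test over 100000 resamples, two-sided, p = 1.30e-04 and 4.00e-05; adjusted over the 9 genes 0.00117 and 3.60e-04). For Slc27a1 r was 0.81 (permutation p = 0.00307, adjusted 0.0138) and rho 0.59 (p = 0.0624, adjusted 0.14), and for Acsl1 r was 0.72 (p = 0.0132, adjusted 0.0396) and rho 0.71 (p = 0.018, adjusted 0.081). Lrp1 ran the opposite way, with an r of -0.69 (permutation p = 0.0203, adjusted 0.0457) and a rho of -0.47 (p = 0.148, adjusted 0.23). Libraries of a group share their genotype, so these values describe differences between groups as well as between libraries. The permutations moved libraries freely across groups, so their p-values and the calls drawn from them are descriptive only. Cav1 kept its call with every library left out in turn (0.87 to 0.92), and Slc27a1 lost it without CM KO replicate 1 (0.75). Acsl1 lost it without Control replicate 2 (0.66), EC KO replicate 2 or 3 (0.72 in each) or CM KO replicate 1 (0.59), 2 (0.71) or 3 (0.71). Lrp1 kept it only without Total KO replicate 1 or 3, and the 9 other libraries left out in turn gave -0.70 to -0.53.

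The 2 libraries farthest from the median of Cd36 were both Control libraries. Within the 9 knockout libraries that remain, r was 0.91 for Cav1, 0.84 for Gpihbp1, 0.76 for Lpl, 0.72 for Acsl1, 0.57 for Slc27a1 and -0.66 for Lrp1. Fabp3 (0.37), Fabp4 (0.29) and Fabp5 (0.00) had weaker r values there, and r within these 9 libraries was not tested. Over all 11 libraries the r of Fabp3, Fabp4 and Fabp5 (0.47, 0.54 and 0.55), like that of Lpl (0.47) and Gpihbp1 (0.60), did not pass (permutation, adjusted p = 0.148, 0.109, 0.109, 0.148 and 0.0895). The value for Fabp5 thus rests on the Control libraries.

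Among 10277 ranked genes, those most like Cd36 over the 11 libraries by Pearson r of log2 values were Sec61a2 (0.966), Tmem135 (0.956), Chuk (0.945), the lipid droplet gene Plin5 (0.928), the thioesterase gene Acot1 (0.920) and the acyltransferase gene Agpat3 (0.913). They were picked on the same libraries that the tests compare, so a fall in CM KO follows in part from that choice. Of these, Acot1, Agpat3, Plin5 and Tmem135 fell in CM KO (-1.69, -0.55, -0.54 and -0.53; limma against Control, adjusted p = 0.0238, 0.0231, 0.0367 and 0.017), and without Control replicate 1 none of the 4 passed (-1.40, -0.49, -0.44 and -0.52). Acot1 did not pass without CM KO replicate 1 either (-1.50), nor did Plin5 without Control replicate 2 (-0.64), EC KO replicate 2 (-0.54), CM KO replicate 1 (-0.47) or 3 (-0.53) or Total KO replicate 3 (-0.54). Plin5 was also the gene most like Cav1 (0.948), followed by Naa30 (0.931). For Lrp1 the closest were Stab1 (0.994), a scavenger receptor gene, and Timp2 (0.984), an inhibitor of matrix metalloproteinases, which rose in CM KO by 0.95 and 1.18 (limma, adjusted p = 0.00746 and 0.00662; 0.82 and 1.09 and no call without Control replicate 1).

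For Lpl the closest genes were Rbbp7 (0.992) and Scgb1c1 (0.977), for Gpihbp1 Tfdp2 (0.967) and Tbl1xr1 (0.967), and for Acsl1 Slc25a34 (0.935) and Crat (0.929), the mitochondrial carnitine acetyltransferase gene. For Slc27a1 they were Leprel4 (0.943) and Mlycd (0.911), the malonyl-CoA decarboxylase gene. Leprel4 fell by 0.75 in CM KO and by 0.75 in EC KO (limma against Control, adjusted p = 0.013 and 0.0439). Its CM KO call was lost without Control replicate 1 (-0.73), and its EC KO call was lost with any library other than CM KO replicate 1 left out (-0.78 to -0.73). Gpam (0.951), the mitochondrial glycerol phosphate acyltransferase gene, and Mat2b (0.949) were closest to Fabp3, Cxxc4 (0.915) was among the closest to Fabp4, and Mlh3 (0.906) and Khdrbs3 (0.859) were closest to Fabp5. These are the highest of many ranked values over libraries that share groups, and the r values were not tested. The group differences of genes picked in this way, Stab1, Timp2 and Leprel4 included, follow in part from that choice.

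In the wider pathway, of 20 tested genes of lipoprotein lipolysis and remnant uptake 3 were higher and 0 lower in CM KO than in Control (limma, where 5.7% of all genes were called; median 0.24, against 0.00 over all genes; 5 higher by edgeR, 5 higher and 1 lower by DESeq2). They were Apoe, the ligand of remnant receptors, which rose from 4445 ± 70.0 to 8373 ± 1993 (0.88 ± 0.16), Lrp8, a receptor of the same family as Lrp1 (19.2 ± 10.7 to 82.9 ± 23.6, 2.12 ± 0.54), and Sdc4, a heparan sulfate proteoglycan (293 ± 49.5 to 434 ± 29.7, 0.57 ± 0.15). Without Control replicate 1 they stood at 0.90, 1.55 and 0.40 and none passed. Lrp8 also missed without any CM KO library (1.91, 2.18 and 2.28 for replicates 1, 2 and 3) or Total KO replicate 2 or 3 (2.12 in each), and Sdc4 without CM KO replicate 1 (0.52) or 3 (0.58) or any of EC KO replicates 2 and 3 and Total KO replicates 2 and 3 (0.57 in each). Apoe is also abundant in macrophages, whose markers rose as given above, and their part in its value was not tested. In EC KO against CM KO 0 were higher and 7 lower, where 19.1% of all genes were called, among them Apoe (-0.93), Lrp8 (-2.30) and the proprotein convertase genes Pcsk5 (-1.46) and Pcsk6 (-0.57), whose calls held with each library left out. Without the 3 doubted libraries Pcsk5 stood at -0.90 and was not called. Hspg2 (-0.44) kept its call in 2 of 11 such fits and Sorl1 (-0.63) in 3, with -0.37 for Sorl1 without EC KO replicate 1. In Total KO against CM KO 0 were higher and 6 lower, where 16.4% were called. Among these, the call of Apoe (-0.79) held in all 11 fits, those of Lrp8 (-1.70), Pcsk5 (-1.12) and Sdc1 (-0.61) in 5 each and that of Pcsk6 (-0.34) in 3, with -0.40 for Sdc1 without CM KO replicate 1. In EC KO and in Total KO against Control none of the 20 passed limma (3 with an unadjusted p below 0.05 in each; 0 by edgeR and 0 by DESeq2), where 0.316% and 0.0848% of all genes were called.

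Among regulators of the uptake genes, Ppara was higher in EC KO and Total KO than in CM KO. Of 14 PPAR regulators, 4 were higher and 1 lower in EC KO than in CM KO, and 3 were higher and 1 lower in Total KO (limma; 19.1% and 16.4% of all genes were called; medians 0.21 and 0.24). Ppara, a PPAR of cardiomyocytes, averaged 1493 ± 21.7 in Control, 2408 ± 170.3 in EC KO, 1051 ± 401 in CM KO and 2386 ± 362 in Total KO, and was higher than in CM KO by 1.27 ± 0.21 in EC KO and 1.25 ± 0.21 in Total KO (limma, adjusted p = 0.00241 and 0.00438). Both calls held with every library left out in turn. Foxo1, a transcription factor acting in both endothelium and muscle, was higher in EC KO than in CM KO by 0.67 ± 0.12 (limma, adjusted p = 0.00393; 0.48 and 0.33 and no call when scaled to cardiomyocyte or endothelial markers), and Ppargc1a, the PPAR coactivator, was higher in Total KO than in CM KO by 1.16 ± 0.27 (adjusted p = 0.0148; 1.01 and not called without Total KO replicate 1). Cebpa was lower (-0.86 in EC KO and -0.94 in Total KO minus CM KO, with calls in 8 and 9 of 11 leave-one-out fits), Rxrg was higher in Total KO (0.44, in 7 of 11), and Ppargc1a was higher in EC KO (0.88, in 6 of 11; 0.55 without CM KO replicate 1). Pparg stood at 0.42 ± 0.12 between EC KO and CM KO (adjusted p = 0.0335), a call lost without EC KO replicate 1 (0.33) or 2 (0.41) or CM KO replicate 1 (0.33) or 3 (0.43). Against Control none of the 14 passed limma in EC KO, CM KO or Total KO (2, 4 and 1 with an unadjusted p below 0.05; 0 by edgeR and 0 by DESeq2 in each). Over all tested genes 0.316%, 5.7% and 0.0848% were called in these 3 contrasts, so counts of 0 do not set this list apart.

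The list of endothelial fatty acid transport control shares Foxo1 and Pparg with the list of PPAR regulators. In EC KO and Total KO against Control none of its genes passed limma (3 and 0 with an unadjusted p below 0.05; 0 by edgeR and 0 by DESeq2 in each), where 0.316% and 0.0848% of all tested genes were called. In CM KO against Control, where 5.7% of all tested genes were called, 0 of its 15 genes rose and 1 fell. It was Apln, the apelin ligand of endothelium (92.4 ± 31.7 to 41.3 ± 8.4, -1.12 ± 0.25; limma, adjusted p = 0.0251), whose call was lost without Control replicate 1 (-1.47) or 2 (-0.76) or CM KO replicate 1 (-0.97) or 3 (-1.12). Apln was higher in EC KO and in Total KO than in CM KO, by 1.04 ± 0.22 and 1.27 ± 0.22, and both calls held with every library left out in turn (the former was 0.89 and not called without the 3 doubted libraries). Foxo1 (0.67), Flt1 (0.63), Pparg (0.42) and Tek (0.34) were the other 4 of the list that were higher in EC KO than in CM KO, where 19.1% of all genes were called. Flt1 kept its call in 10 of 11 leave-one-out fits and Tek in 6. Endothelial markers moved with this list: 8 of 15 were higher in EC KO than in CM KO and 0 lower (limma; median 0.37, against 0.39 for the list), Tek and Kdr are in both lists, and the part of these cells in the list's values was not tested. Of 34 tested genes of CD36 trafficking and signalling, 1 rose and 1 fell in CM KO against Control (limma; median 0.04). Over all tested genes 5.7% were called there, 3.29% higher and 2.4% lower. Tbc1d4, a brake on vesicle transport to the membrane, fell from 2943 ± 897 to 1118 ± 202 (-1.38 ± 0.18, adjusted p = 0.00303; -1.06 and no call without Control replicate 1), and Tlr2, a receptor that cooperates with CD36 in macrophages, rose from 67.4 ± 1.4 to 173 ± 51.5 (1.30 ± 0.26, adjusted p = 0.0179; 1.32 and 1.28 and no call without Control replicate 1 or 2). In EC KO against CM KO 4 were higher and 5 lower, that is 9 of 34, where 19.1% of all genes were called. The calls of Tbc1d4 and Atp6v1b2 (higher) and of Tlr2 and Vamp5 (lower) held with each library left out, and those of Park2 and Tlr4 (higher) and of Src, Scarb2 and Thbs1 (lower) held in 7, 6, 7, 5 and 3 of 11 fits. Without the 3 doubted libraries Tbc1d4 (0.58) and Vamp5 (-0.46) were not called. In Total KO against CM KO 3 were higher and 5 lower, that is 8 of 34, where 16.4% were called. The calls of Tbc1d4 and Park2 (higher) held with each library left out, and those of Atp6v1b2 (higher) and of Tlr2, Cd9, Thbs1, Scarb2 and Yes1 (lower) held in 7, 10, 7, 4, 2 and 2 of 11 fits. In EC KO against Control none passed limma (5 with an unadjusted p below 0.05; 0 by edgeR, and Atp6v1b2 and Scarb2 by DESeq2), and in Total KO none (4 with an unadjusted p below 0.05; 0 by edgeR, and Yes1 by DESeq2). Over all tested genes limma called 0.316% and 0.0848% in these 2 contrasts.

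The families of Fabp3, Slc27a1 and Acsl1 and the caveolar genes were counted in the same way. Over all tested genes, 5.7% were called in CM KO against Control, 19.1% in EC KO against CM KO and 16.4% in Total KO against CM KO. In EC KO and in Total KO against Control the shares were 0.316% and 0.0848%. Of 12 tested genes of fatty acid binding and activation none passed limma in EC KO, CM KO or Total KO against Control (1, 0 and 2 with an unadjusted p below 0.05; 0 by edgeR and 0 by DESeq2 in each), and Acsl4 alone was called between knockout groups (0.37 ± 0.12 in EC KO minus CM KO; limma, adjusted p = 0.0411). That call was lost without EC KO replicate 1 (0.42) or 2 (0.27), CM KO replicate 1 or 2 (0.33 in each), any Total KO library (0.37 in each) or the 3 doubted libraries (0.38). Of 11 caveolar genes other than Cav1, Pacsin3, which shapes caveolar membrane, rose in CM KO (2840.4 ± 351 to 3846 ± 127, 0.44 ± 0.09; limma, adjusted p = 0.0228; 0.32 and no call without Control replicate 1). It was lower in EC KO than in CM KO (-0.49), Ehd2 was higher there (0.34, a call held in 4 of 11 leave-one-out fits), and Murc was higher in Total KO than in CM KO (0.48, held in 6 of 11, and 0.27 without CM KO replicate 1). In EC KO and Total KO against Control none of the 11 passed limma (1 and 0 with an unadjusted p below 0.05; 0 by edgeR and 0 by DESeq2 in each). An unadjusted p below 0.05 was found for 5 of the 11 in CM KO against Control (limma). It was found for 7 in EC KO against CM KO and for 5 in Total KO against CM KO.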

How the data were processed

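Total RNA (400 ng) of mouse heart was made into stranded, rRNA-depleted libraries, per the labels' protocols. The submitters' processing notes name TopHat2 (no version), HTSeq 0.8.0, DESeq2 (listed as 3.5) and mm10, and the deposited table holds a normalized count per gene and library (unit: signal), made by the authors. The strand setting of the counting is not given in the sources used here. Reads were recovered from the steps of the low values: all 257620 values, or 100.0%, lay within 0.05 of a whole read. Libraries held 2268403 to 20105673 reads.

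Libraries were grouped by title. log2(value + 1) of genes with a mean of at least 10 was fitted over all 4 groups with limma 3.58.1 (R 4.3.3, Benjamini-Hochberg adjustment), so a difference understates the change of low genes. Alternatives were edgeR 4.0.16 and DESeq2 1.42.0 on the recovered reads, other pseudocounts, filters, scalings and weights, 2-group fits, each library left out, and, chosen after seeing the data, the 3 doubted libraries left out and scaling to marker genes. The fits were also run on simulated counts with the same dispersion for all genes and no outlying library, unlike these data. The outcome is not given here. Correlations used permutation tests in Python 3.11.15. Promoters came from RefSeq (GRCm38.p6; 6 of the 10 genes matched).

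Named genes were the 10, the 6 most like Cd36 and the 2 most like each other gene by Pearson r (mean of at least 50), and the pathway genes that passed, of which 2 genes are not reported here; the genes and lists were chosen with earlier results of these data known.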

Additional observations from a re-analysis of the deposited data

How the results depend on the processing

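The number of the 10 genes called stayed at 0 in EC KO minus Control and Total KO minus EC KO under all alternatives run. For CM KO minus Control (5), it was 0 in a fit to the 2 groups, 3 with a weight per library and without the 3 doubted libraries, 2 under each marker scaling, 6 by DESeq2, and 0 to 5 with 1 library left out. For Total KO minus Control (0), it was 1 with equal totals, quantile normalization, weights, the doubted libraries left out or cardiomyocyte scaling, 2 by DESeq2, and 0 to 1 with 1 library left out. For EC KO minus CM KO (5), it was 3 without a filter, with quantile normalization, a 2-group fit, the doubted libraries left out or cardiomyocyte scaling, 1 with endothelial scaling, 6 by DESeq2, and 3 to 5 with 1 library left out. For Total KO minus CM KO (3), it was 1 with equal totals, quantile normalization or endothelial scaling, 5 with weights or DESeq2, and 1 to 3 with 1 library left out. For the F test (5), it was 8 by DESeq2, 2 without the doubted libraries and 3 under each marker scaling. The cause of these shifts was not tested, apart from the fewer samples of the smaller fits.

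Pearson r with Cd36, with 1 library left out, ranged from 0.59 to 0.83 for Acsl1, 0.75 to 0.87 for Slc27a1, -0.81 to -0.53 for Lrp1, 0.37 to 0.70 for Fabp4 and 0.25 to 0.70 for Fabp5. It was -0.53 for Lrp1 with equal totals, which did not pass.

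Differences that changed sign were all uncalled. With 1 library left out, the ranges were -0.04 to 0.07 for Acsl1 in Total KO minus EC KO, -0.17 to 0.05 for Cav1 in EC KO minus Control and -0.03 to 0.20 for Cd36 in Total KO minus CM KO. They were -0.02 to 0.11 for Fabp3 and -0.26 to 0.04 for Fabp4 in Total KO minus Control, and -0.09 to 0.18 for Fabp4 and -0.17 to 0.05 for Fabp5 in EC KO minus CM KO. For Gpihbp1 (-0.14 to 0.13) and Lpl (-0.04 to 0.46) the sign changed in Total KO minus Control, and for Lpl (-0.17 to 0.02) in Total KO minus EC KO. For Lrp1 it changed in EC KO minus Control (-0.08 to 0.33), Total KO minus Control (-0.04 to 0.37) and Total KO minus EC KO (-0.01 to 0.09), and for Slc27a1 in Total KO minus CM KO (-0.05 to 0.12). With equal totals, Acsl1 stood at -0.00 in Total KO minus EC KO, Fabp3 at -0.02 in Total KO minus Control, Cd36 at -0.02 and Slc27a1 at -0.08 in Total KO minus CM KO, and Fabp4 at -0.10 and Slc27a1 at -0.00 in EC KO minus CM KO. With quantile normalization, the same 6 stood at -0.00, -0.10, -0.15, -0.11, -0.21 and -0.01, Fabp3 at -0.08 and Fabp5 at 0.07 in EC KO minus CM KO, and Fabp4 at -0.08 in Total KO minus CM KO. Scaled to cardiomyocyte markers, they stood at -0.01, -0.09, -0.09, -0.15, -0.16 and -0.07, Fabp3 at -0.05 in EC KO minus CM KO, and Cav1 at -0.03 and Fabp5 at -0.02 in Total KO minus CM KO. Scaled to endothelial markers, Fabp3 stood at -0.20, Fabp4 at -0.31 and Slc27a1 at -0.22 in EC KO minus CM KO, Gpihbp1 at 0.01, Lpl at 0.16 and Slc27a1 at 0.17 in Total KO minus EC KO, Gpihbp1 at 0.06 in Total KO minus Control, Lrp1 at -0.05 in EC KO minus Control and Slc27a1 at -0.05 in Total KO minus CM KO. With weights, Acsl1 stood at -0.01 in Total KO minus EC KO, Fabp4 at -0.17 in EC KO minus CM KO and Gpihbp1 at 0.03 in Total KO minus Control, where upper-quartile rescaling gave 0.00. Without the doubted libraries, Fabp4 stood at -0.15 in EC KO minus CM KO and 0.04 in Total KO minus Control, Gpihbp1 at 0.08 in the latter and Slc27a1 at -0.02 in Total KO minus CM KO.

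Scaling shifted the median of all genes by over 0.1 in some contrasts: with equal totals it was -0.12 in EC KO minus CM KO and -0.14 in Total KO minus CM KO, with cardiomyocyte scaling -0.19 and -0.21 (-0.11 in EC KO and -0.12 in Total KO minus Control), and with endothelial scaling -0.34 and -0.11 (-0.19 for EC KO minus Control, 0.16 for CM KO minus Control, 0.25 in Total KO minus EC KO). Over all genes, the 41 calls of EC KO minus Control were 162 by DESeq2 (5 to 84 with 1 library left out), the 739 of CM KO minus Control 1276 by DESeq2 and 61 in a 2-group fit (26 to 999), the 11 of Total KO minus Control 100 by DESeq2 (1 to 33) and the 5 of Total KO minus EC KO 70 by DESeq2 (0 to 28). With 1 library left out, EC KO minus CM KO gave 1455 to 2582, Total KO minus CM KO 1036 to 2272 and the F test 940 to 2084. No paired analysis was possible because the numbers in the labels are not replicate numbers shared by the groups. The 2 Control libraries and the 2268403 reads of EC KO replicate 1 limit the precision.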
